A study of Mus musculus with 6 samples.

Results

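The 10 genes described here encode proteins of the piRNA pathway and were found as the probes whose gene name in the array files is Piwil1, Piwil2, Piwil4, Mael, Ddx4, Tdrd1, Tdrd6, Tdrd7, Tdrd9 or Mov10l1. They are 10 of the 27376 gene names on the array. Total RNA was taken from whole testis of 3 Prss55-/- and 3 wt male mice, all of mixed 129Sv/C57BL/6 background and 6 to 8 weeks old, and 1 whole mouse genome array with a single dye was hybridized per mouse. The Prss55-/- mice carry a disrupted Prss55 allele on both chromosomes, made by homologous recombination, in every cell of the body. The targeting vector held PGK-Neo for selection, and no treatment is named for either group. Prss55 encodes a serine protease of the testis. The comparison asks whether testis lacking it holds other amounts of these transcripts. In bulk testis, fewer cells of a type and less RNA per cell cannot be told apart.

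piRNAs are small RNAs of the germ line that are loaded into PIWI proteins, the germline branch of the Argonaute family. They guide the slicing of transposon and other transcripts in the cytoplasm and, in foetal germ cells, the silencing of transposons by DNA methylation in the nucleus. In the mouse the precursors are cut and trimmed at the surface of mitochondria, and PIWI proteins, RNA helicases and Tudor proteins gather in granules such as the intermitochondrial cement of spermatocytes and the chromatoid body of round spermatids.

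The array carries 13 probes of 60 nucleotides for the 10 genes, 1 for each of 7 genes and more for the other 3. The brightest probe stood for a gene. The first 30 nucleotides of the probes are shown for the PIWI genes, which hold the largest and the smallest difference of the 10 genes and the dimmest probe, and for Exd1, the gene of the wider pathway that passed the test further on. They are written 5′ to 3′ on the strand of the transcript, as the array files give them.
Piwil1: tagttgttggtgtgtagcggctatagagtt
Piwil2: gctgagacctgaaatgtaaaagccatagaa
Piwil4: catcacagcttctaaaacaatatttgtgtg
Exd1: caggtgatgtcactgtagagggtatttgct

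In mm9, the build named in the file headers, the Piwil1 probe lies at chr5:129260319-129260378 on the plus strand, the Piwil2 probe at chr14:70772497-70772556, the Piwil4 probe at chr9:14506314-14506373 and the Exd1 probe at chr2:119345205-119345264, the last 3 on the minus strand. Whether a probe lies in coding sequence or in a UTR was not analysed here. The G and C content of the 12 member probes that were tested ran from 35% for several genes, Piwil4 and Mael among them, to 51.67% for Tdrd6. The longest run of bases that any of them shared with a probe of another gene was between 12 and 14 bases, so the PIWI and Tudor genes were read by probes without long stretches in common.

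No member passed the test between genotypes. Of 10 members tested, 0 passed an adjusted p of 0.05 in limma, where 1.39% of the 19181 tested genes passed, and the members' adjusted p values ran from 0.146 to 0.942. At an unadjusted p below 0.05, 1 member, Piwil2, was higher in Prss55-/- testis, where 9.83% of all genes were. The difference (Prss55-/- minus wt, log2 scale) was above 0 for 7 members and below 0 for 3, and 49.3% of all genes were above 0. For 4 members, Piwil2, Ddx4, Tdrd7 and Tdrd9, every Prss55-/- array lay above every wt array, which 13.4% of all genes did. No member had every Prss55-/- array below every wt array, which 14% of all genes did. The median difference over the 10 members was 0.086, beside -0.0023 over all tested genes, whose middle part from the 25th to the 75th percentile ran from -0.097 to 0.095.

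The 95% interval left out 0 for Piwil2 and held 0 for the other 9 members. The 95% intervals of the 10 members together ran from -0.37 to 0.45, so that the widest upper bound is 1.37-fold, and all 10 intervals stayed within 1 log2 unit of 0. The SD between replicates, pooled over both genotypes, had a median of 0.087 over the members and 0.090 over all tested genes, with members between 0.022 for the tightest and 0.17 for the widest.

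**Figure D1:**
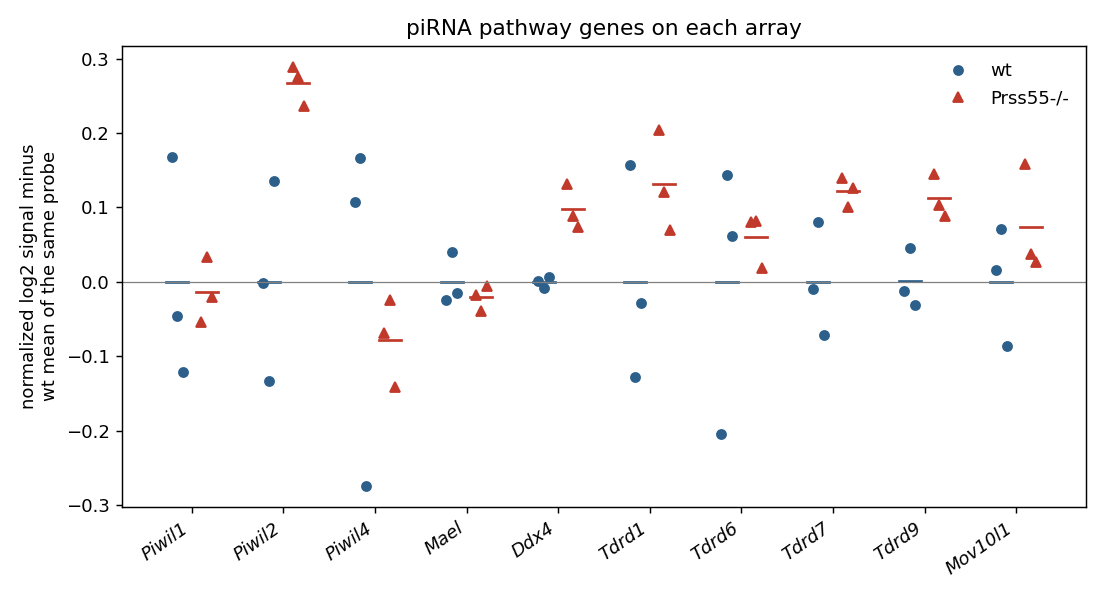
Normalized log2 signal of the brightest probe of each member on each of the 6 arrays, minus the wt mean of the same probe. Circles are wt arrays, triangles are Prss55-/- arrays and short lines are group means (n = 3). Piwil2, Ddx4, Tdrd7 and Tdrd9 are the 4 members whose groups do not overlap.

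The targeted gene and the arrays were checked first. The Prss55 probe read 15.08, 14.95 and 14.93 log2 on the Prss55-/- arrays and 15.87, 15.77 and 16.01 on the wt arrays, a difference of -0.90 (SE 0.080, limma adjusted p = 0.0100), the direction the labels give, although signal remained. The adjusted call was lost in 5 of 15 alternatives, the highest adjusted p being 0.101 with the replicate block, while every Prss55-/- value lay under every wt value. The paper reported that Prss55 RNA was absent from Prss55-/- testis by RT-PCR, and the protein by Western blot and immunofluorescence. Whether this probe lies in the removed part of the gene was not analysed here. Between 69.5% and 72.9% of spots were well above background, and the arrays correlated at 0.992 to 0.997 with each other over probes. The 3 Prss55-/- arrays shared 1 slide and the wt arrays lay on 2 others, so slide and genotype cannot be told apart. All the germ cell and Sertoli cell markers found on the array were well above background in at least 1 genotype, so the tissue is testis by its markers. Differences were below 0 in Prss55-/- for 5 of 6 tested Leydig cell markers, with a mean log2 signal of the list of 10.45 to 11.13 on Prss55-/- and 10.88 to 11.25 on wt arrays, for 5 of 5 macrophage markers (9.65 to 9.82 and 9.78 to 9.99), for 4 of 4 peritubular and vascular markers and for the 2 of 5 epididymis markers that could be tested. Of these 2, Defb20 measured -0.023 and Rnase10 -2.91 (limma adjusted p = 0.0925), Rnase10 at 7.29, 4.64 and 5.44 on the Prss55-/- arrays, of which 2 were well above background, and 8.60, 8.80 and 8.71 on the wt arrays. None of these markers passed the adjusted threshold, and their part in the members' values was not tested.

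The signal rank of the members was high except for Piwil4. The brightest probes of 7 members lay above the 90th percentile of all 41174 probes on the array, with Mael at 99.6, Tdrd7 at 98.0, Ddx4 at 97.0, Tdrd1 at 96.5, Tdrd6 at 95.6, Piwil1 at 91.0 and Tdrd9 at 90.4. Piwil2 and Mov10l1 both lay at 81.6. Piwil4 lay at 36.7. These percentiles are ranks of probe signal, and since probes bind their targets unequally they do not order the transcripts by amount.

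**Figure D2:**
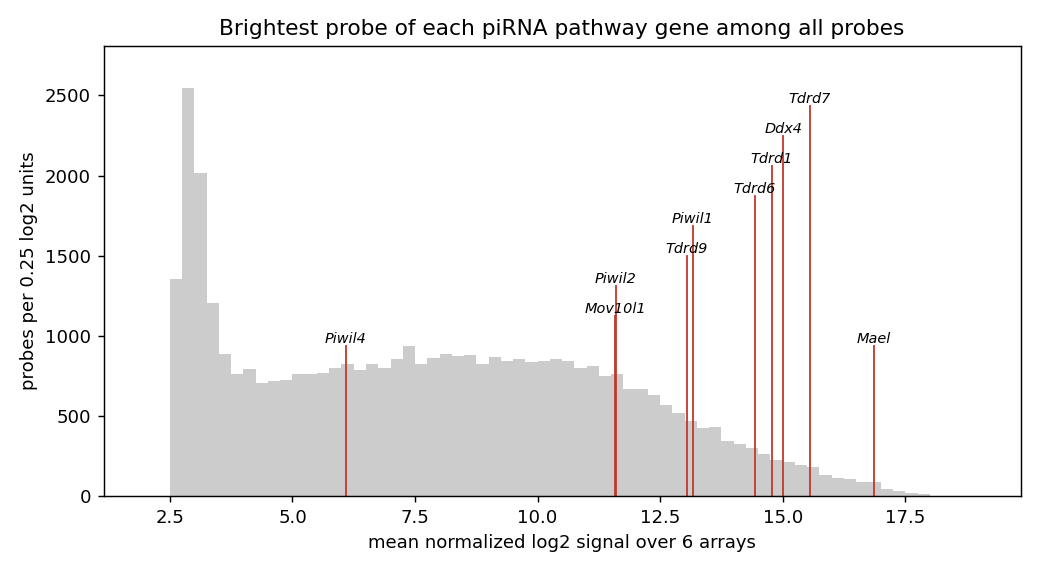
Distribution of the mean normalized log2 signal of all 41174 probes over the 6 arrays, in steps of 0.25, with the brightest probe of each member as a red line (line heights only separate the names). Piwil4 sits at 6.09 and the other 9 members from 11.59 up to 16.86.

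Among the PIWI genes, Piwil2 had the largest difference of the 10 members and Piwil1 the smallest in size. Piwil2 encodes MILI, a PIWI protein present in foetal germ cells and in later stages, spermatocytes among them. Its normalized log2 signal was 11.75, 11.73 and 11.69 on the Prss55-/- arrays and 11.46, 11.32 and 11.59 on the wt arrays. All 3 Prss55-/- values lay within 0.053 of each other and above the highest wt value, while the wt values spread over 0.27. The difference was 0.27 (SE 0.076, 95% interval 0.082 to 0.45, unadjusted p = 0.0123, limma adjusted p = 0.146), a signal 1.20-fold that of wt. It is past the unadjusted level and short of the adjusted one.

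Piwil1 encodes MIWI, which binds piRNAs in pachytene spermatocytes and round spermatids. It read 13.12, 13.21 and 13.15 on the Prss55-/- arrays and 13.34, 13.13 and 13.05 on the wt arrays. The Prss55-/- arrays fell inside the wt range, since wt replicate 1 was the highest and wt replicate 3 the lowest of the 6. The difference was -0.014 (SE 0.084, limma adjusted p = 0.942), with a 95% interval of -0.22 to 0.19.

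Piwil4 encodes MIWI2, which acts in the nuclei of foetal prospermatogonia. Its brightest probe exceeded background clearly on each of the 6 arrays but was dim, at 6.06, 6.10 and 5.98 in Prss55-/- and 6.23, 6.29 and 5.85 in wt. The groups overlapped, with wt replicate 3 the lowest array and the other 2 wt arrays the highest, and the difference was -0.078 (SE 0.12, limma adjusted p = 0.761). Its second probe rose well above background on 0 of the 6 arrays, with measured means of 2.83 in Prss55-/- and 2.91 in wt, and was not tested.

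The members that encode RNA helicases all had differences above 0, none past the adjusted threshold. Ddx4 encodes VASA, a DEAD-box helicase of the germ line that serves as a marker of germ cells. It read 15.10, 15.05 and 15.04 in Prss55-/- and 14.96, 14.95 and 14.97 in wt. The wt arrays were the tightest of any member (SD 0.0074) and all lay below the Prss55-/- arrays. The difference was 0.098 (SE 0.043, limma adjusted p = 0.288).

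Tdrd9 encodes a helicase with a Tudor domain that works with MIWI2 in transposon silencing. Its values were 13.13, 13.09 and 13.08 in Prss55-/- and 12.98, 13.03 and 12.96 in wt. As for Ddx4 the groups did not overlap, and the gap between the lowest Prss55-/- and the highest wt array was 0.044. The difference was 0.11 (SE 0.047, limma adjusted p = 0.269).

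Mov10l1 encodes the helicase that feeds piRNA precursors into processing. Its brightest probe read 11.71, 11.59 and 11.58 in Prss55-/- and 11.57, 11.62 and 11.47 in wt, so the groups overlapped, and the difference was 0.074 (SE 0.065, limma adjusted p = 0.573). Its dimmer probe spans 2747 bases of the genome, so it crosses at least 1 intron, and read 9.14, 8.87 and 8.85 against 8.72, 8.80 and 8.81. On that probe the groups did not overlap, with Prss55-/- replicate 1 the highest, and the difference was 0.17 (SE 0.088, limma adjusted p = 0.349).

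The Tudor proteins bind methylated arginines of PIWI proteins and build the germ granules. Tdrd7, a component of the chromatoid body, read 15.63, 15.59 and 15.62 in Prss55-/- and 15.48, 15.57 and 15.42 in wt. The groups did not overlap, but wt replicate 2 lay only 0.019 below the lowest Prss55-/- array. The difference was 0.12 (SE 0.055, limma adjusted p = 0.297).

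Tdrd1, which binds MILI in the intermitochondrial cement, read 14.91, 14.83 and 14.78 in Prss55-/- and 14.87, 14.58 and 14.68 in wt. Here wt replicate 1 lay among the Prss55-/- arrays and the other 2 wt arrays lay below all of them. The difference was 0.13 (SE 0.085, limma adjusted p = 0.446), and a second probe, which spans 482 bases of the genome, gave 0.051 (SE 0.061, limma adjusted p = 0.685).

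Tdrd6, needed for the structure of the chromatoid body, read 14.48, 14.48 and 14.42 in Prss55-/- and 14.20, 14.54 and 14.46 in wt. The Prss55-/- arrays fell inside the wt range, whose low end is wt replicate 1 alone. The difference was 0.060 (SE 0.095, limma adjusted p = 0.764), and it turned to -0.043 without that array.

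Mael encodes Maelstrom, a germ granule protein needed for transposon silencing. It was the brightest member, at 16.86, 16.83 and 16.87 in Prss55-/- and 16.85, 16.91 and 16.86 in wt. The groups overlapped and all 6 arrays lay within 0.079 of each other. The difference was -0.021 (SE 0.045, limma adjusted p = 0.827), and with a scaling of each array on its 75th percentile it was 0.017, on which scale Piwil4 also turned, to 0.0066.

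Averaged over the 10 members, the Prss55-/- arrays lay above the wt arrays, by small amounts. Prss55-/- replicate 1 was the highest array for 6 of 10 members, and wt replicate 3 was the lowest for 5. The mean deviation of the members from their own mean over the 6 arrays was 0.063, 0.040 and 0.0094 on the Prss55-/- arrays and -0.018, -0.015 and -0.080 on the wt arrays, so these means did not overlap between genotypes, while 6 of the 10 members overlapped singly. The same mean over all tested genes stayed between -0.0043 and 0.010, but quantile normalization holds it near 0 on every array. It therefore cannot show whether a separated mean of 10 genes is unusual. Without Prss55-/- replicate 1 the members' median difference was 0.066, and without wt replicate 3 it was 0.089.

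Markers of round spermatids had a median difference of 0.12, with the same sign as that of the members. Of 8 tested, 7 were above 0, among them Spaca1, an acrosome membrane protein, at 0.25 (limma adjusted p = 0.104), and Crem, the transcription factor of the spermatid programme, at 0.18 (limma adjusted p = 0.119). None passed the adjusted threshold, 4 were higher at an unadjusted p below 0.05 (9.83% of all tested genes were), and the mean log2 signal of the list ran from 15.25 to 15.33 on Prss55-/- arrays and from 15.14 to 15.20 on wt arrays. The medians of the spermatocyte list (-0.0054), the spermatogonia list (0.061) and the elongating spermatid list (0.019) lay nearer to 0 than that. The part of cell make-up in the members' values was not tested.

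The wider pathway gave 1 gene past the threshold, and it was lower. A list of 36 further piRNA genes had 32 on the array, all tested, since Pnldc1, Dnmt3c, Spocd1 and Btbd18 were not matched by name. Of the 32, 15 were higher and 17 lower in Prss55-/-, with a median of -0.010. The adjusted threshold was passed by 1 of them, beside 1.39% of all tested genes. The groups did not overlap for 6 that were higher and 6 that were lower, beside 13.4% and 14% of all tested genes. By role as listed, 7 of 17 biogenesis genes, 3 of 4 genes of nuclear silencing, 2 of 4 genes for the transcription of precursors and 3 of 7 chromatoid body and germ granule genes were higher. Adad2, a gene of the germ granules, was counted with the transcription of precursors and was 1 of its 2 higher genes.

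**Figure D3:**
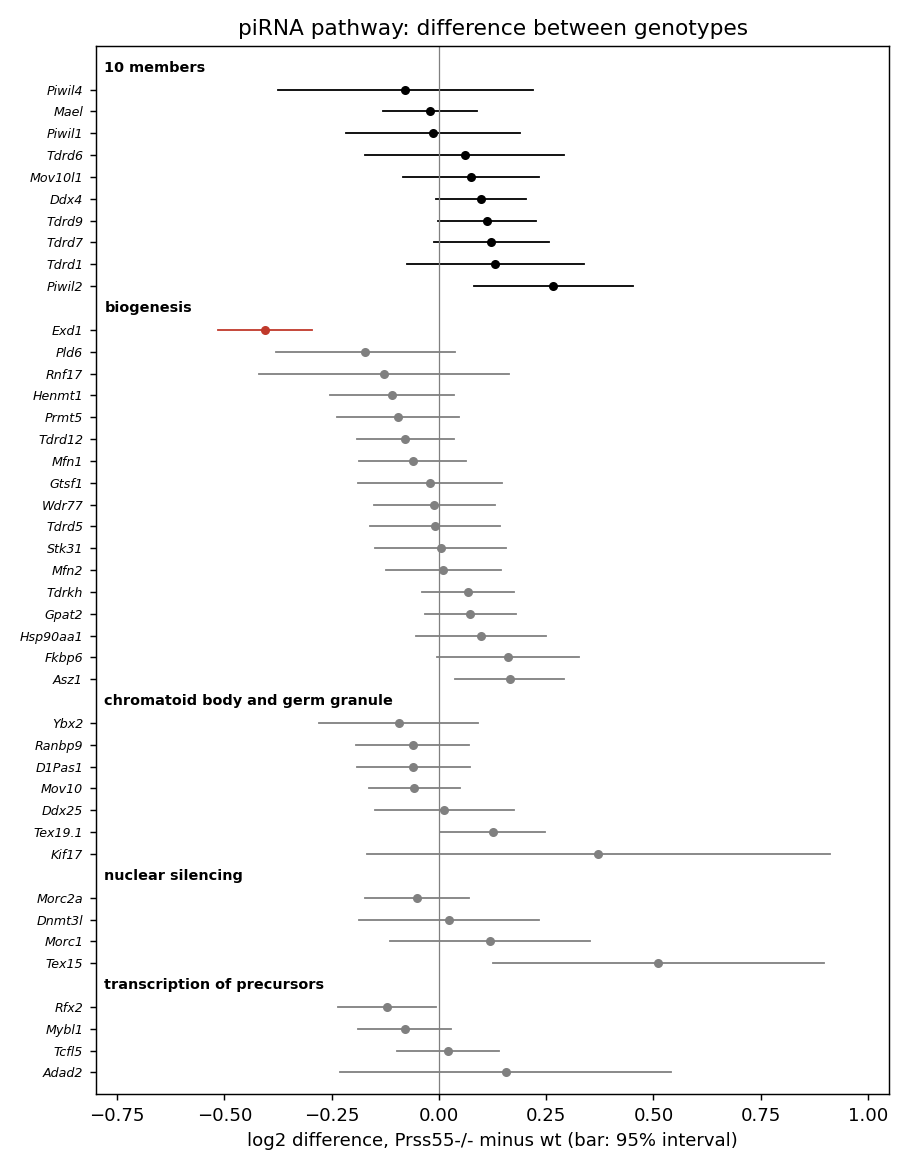
Log2 difference (Prss55-/- minus wt) of the 10 members (black) and the 32 further piRNA genes (grey, in 4 groups by role), each by its brightest probe, with its 95% interval from limma as a bar. Exd1, in red at -0.41, is the 1 gene past an adjusted p of 0.05.

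Exd1 encodes a partner of TDRD12 in the complex that amplifies piRNAs bound to MIWI2. It read 11.75, 11.76 and 11.75 on the Prss55-/- arrays and 12.19, 12.16 and 12.11 on the wt arrays. The Prss55-/- arrays were nearly level (SD 0.0054) and all lay below the wt arrays. The difference was -0.41 (SE 0.045, limma adjusted p = 0.0198), which is 75.5% of the wt signal. The call was lost without Prss55-/- replicate 2 (adjusted p = 0.123), Prss55-/- replicate 3 (0.117), wt replicate 1 (0.0970) or wt replicate 2 (0.0751) and with the replicate block (0.147), while the difference stayed between -0.43 and -0.39 over the 15 alternatives. Tdrd12 itself gave -0.078 (SE 0.046, limma adjusted p = 0.408) on its brightest probe and 0.0037 (limma adjusted p = 0.985) on its other.

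Exd1 lies among many genes that differed between the genotypes. Within 1 Mb of its probe 50 other genes were tested. Of them 11 passed the adjusted threshold, 9 lower and 2 higher in Prss55-/-, where 1.39% of all tested genes passed. Ltk, which encodes a receptor tyrosine kinase, lies 0.232 Mb away and was at least 4.90-fold lower in Prss55-/- (limma adjusted p = 0.00158). Pla2g4e, which encodes a phospholipase, lies 0.647 Mb away and was at least 1.97-fold lower in Prss55-/- (limma adjusted p = 0.000668). Both probes were not well above background on the 3 Prss55-/- arrays, so these folds are bounds, taken from the wt mean against the lowest signal well above background on each Prss55-/- array. The same window was examined for the 10 members after their values were seen. It held at most 1 called gene for each of them, among 13 tested neighbours for Piwil1 and up to 37 for Tdrd9. Piwil2 lies on the chromosome of Prss55, 6.08 Mb from it, and 1 of its 36 tested neighbours passed, Phyhip, at 1.41 (limma adjusted p = 0.0491). Whether position plays a part in the values of Exd1 or Piwil2 was not tested.

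**Figure D4:**
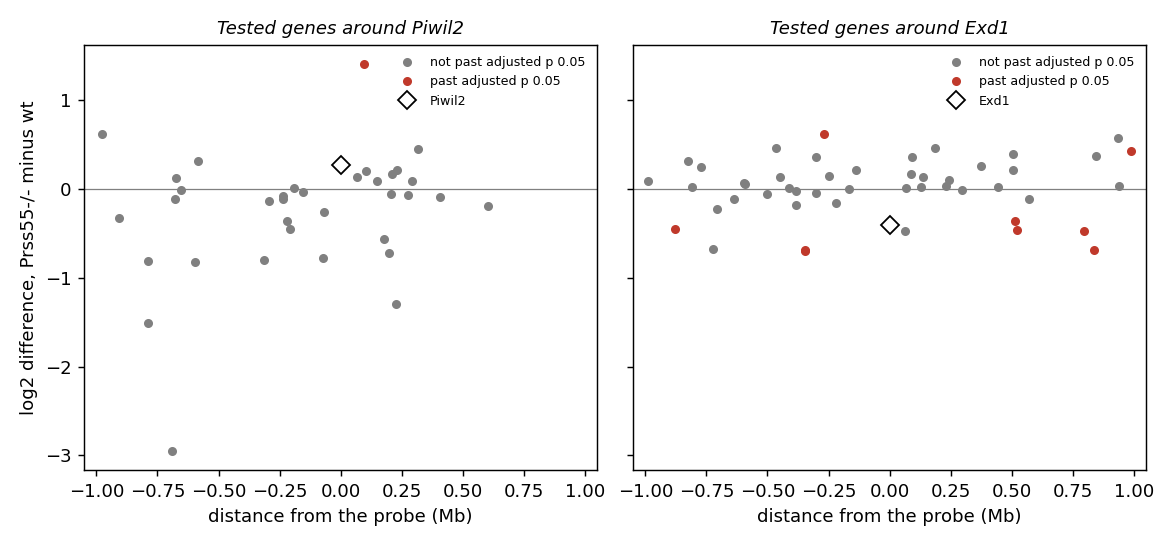
Log2 difference (Prss55-/- minus wt) of the tested genes within 1 Mb of the Piwil2 probe (left) and the Exd1 probe (right), against distance in Mb. Red points passed an adjusted p of 0.05 (1 of 35 plotted neighbours of Piwil2 and 9 of 48 of Exd1) and the open diamond is the gene itself. Genes not well above background on any array of 1 genotype, Ltk and Pla2g4e among them, are not plotted.

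Tex15 and Kif17 had the next differences by size and did not pass, Tex15 being larger than Exd1. Tex15, needed for piRNA-guided DNA methylation, read 12.06, 12.55 and 12.65 in Prss55-/- and 11.84, 12.01 and 11.88 in wt. The groups did not overlap, but Prss55-/- replicate 1 lay close to the wt arrays, and the difference was 0.51 (SE 0.16, limma adjusted p = 0.170). Without that array it was 0.69 (limma adjusted p = 0.0177), past the threshold. Of the 15 alternatives described below, this was the only 1 in which Tex15 passed. Kif17, a kinesin of the chromatoid body, had 0.37 (SE 0.22, limma adjusted p = 0.413), with overlapping groups on its brightest probe. Its 2 other probes gave 0.22 and 0.25 (limma adjusted p = 0.228 and 0.221), and on both of them the groups did not overlap.

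The next largest values were smaller. Pld6, the mitochondrial endonuclease that cuts precursors, had -0.17 (limma adjusted p = 0.337). Asz1, which anchors the machinery at mitochondria, had 0.16 (limma adjusted p = 0.175), and Fkbp6, a co-chaperone in piRNA loading, had 0.16 (limma adjusted p = 0.271). Adad2 of the germ granules had 0.16 (limma adjusted p = 0.631), and Tex19.1, which restrains transposons, had 0.12 (limma adjusted p = 0.257). Rfx2, a transcription factor of spermatids, had -0.12 on its brightest probe and 0.028 on its other (limma adjusted p = 0.239 and 0.872). Rnf17, a Tudor protein of male germ cells, had -0.13 on its brightest probe and 0.16 on another (limma adjusted p = 0.599 and 0.175), so its probes pointed opposite ways.

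Mybl1 encodes A-MYB, the transcription factor that switches on pachytene piRNA precursors and genes of the pathway. Its brightest probe read 10.23, 10.25 and 10.24 in Prss55-/- and 10.28, 10.36 and 10.32 in wt. The Prss55-/- arrays were the 3 lowest of the 6, by a difference of -0.079 (SE 0.045, limma adjusted p = 0.384). Its other probes gave -0.19 (limma adjusted p = 0.175) and -0.036 (limma adjusted p = 0.840).

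The MYB element was looked for in the RefSeq promoters of the members, from 250 bases before to 50 bases after the start (GRCm38.p6), as the letters AACTG or AACGG preceded by T or C, on either strand. Promoters were matched for 8 of the 10 members, all but Piwil2 and Tdrd6. Of these 8, 3 genes, Piwil1, Tdrd7 and Mov10l1, held the letters in at least 1 promoter, beside 31.1% of 27025 genes in all. Counted by promoter, 4 of 13 held them, beside 28.3% of 32851.

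The related Argonaute and microRNA genes gave no call either. All 9 on the list were tested and taken by their brightest probes. In limma 0 passed the adjusted threshold and 1 had an unadjusted p below 0.05. Over the array 5465 of all 28606 tested probes had such a p, a count of probes rather than genes and in either direction. Of the 9, 4 were higher and 5 lower, with a median of -0.025. The gene at an unadjusted p below 0.05 was Xpo5, which exports microRNA precursors from the nucleus, at -0.16 (limma adjusted p = 0.137). A dimmer probe of Ago4 gave -0.29 (limma adjusted p = 0.0683), with every Prss55-/- array below every wt array. The brightest Ago4 probe gave -0.042 (limma adjusted p = 0.765), and its remaining probes lay between -0.097 and 0.076.

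The genes whose profile over the 6 arrays was most like the mean profile of the members were 6330409D20Rik and Dnajc9 (both at Pearson r = 0.992), Drosha (r = 0.991), 3110043O21Rik (r = 0.989) and Pold3 (r = 0.986). These are the highest of all tested genes over 6 shared arrays and are given as a description. Their differences between genotypes ran from 0.071 for 3110043O21Rik to 0.24 for Pold3, and none passed the adjusted threshold.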

How the data were processed

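Members and gene lists were chosen with earlier results of these data known. The authors deposited Agilent Feature Extraction 10.7 scanner files, whose processed signal is a linear intensity corrected for background within each array, and a table of log2 values whose columns have the same sorted values to within 0.00138, as quantile normalization gives. Outlier spots were set aside (2 missing values among tested probes), signals below 1 were set to 1, and log2 values were quantile-normalized and averaged per probe. A probe entered the test if 1 genotype or both had it well above background on each of the 3 arrays, which 28606 probes did. The two-sided test was the moderated one of limma 3.58.1, run under R 4.3.3 with lmFit followed by eBayes. Its p values were adjusted by Benjamini and Hochberg's method over these probes. Tables and plots were made with Python 3.11.15. Named genes were the members, Prss55, called genes and the 10 largest differences of the further list, Mybl1 and the 5 most alike genes. Others (Tdrd12, other probes of the further genes, neighbours, marker and microRNA genes) were named after their values were seen. The labels number 1 mouse per array. Arrays are few, which limits precision. For a single gene, 3 against 3 cannot go below an exact two-sided permutation p of 0.1. The fit was tested on simulated data.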

Additional observations from a re-analysis of the deposited data

How the results depend on the processing

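Over 15 alternatives for each of 10 members, 0 of 150 passed the adjusted threshold, and the lowest adjusted p was 0.0754 (Piwil2 without wt replicate 3). The members' median stayed between 0.066 and 0.10. No filter on dim probes, the methods' t-test and the replicate block leave these differences as they are, so they could not change a sign. The mean of all tested probes likewise leaves members with 1 tested probe unchanged. The sign changed in 6 of the 150: Piwil1 to 0.0069 without Prss55-/- replicate 1 and 0.069 without wt replicate 1, Piwil4 to 0.0066 with 75th percentile scaling and 0.0046 without wt replicate 2, Mael to 0.017 with that scaling, and Tdrd6 to -0.043 without wt replicate 1. Without 1 array in turn, the range was -0.075 to 0.069 for Piwil1, -0.22 to 0.0046 for Piwil4 and -0.043 to 0.13 for Tdrd6. That scaling moved the median of all tested probes from 0.0019 to 0.024. Members at an unadjusted p below 0.05 numbered 3 with 75th percentile scaling, with no filter on dim probes and by the methods' t-test, 2 with normexp background and with the mean of all tested probes, and 1 to 3 without 1 array. The share of all genes past this level was not counted under the alternatives. Whether these counts follow the whole array therefore cannot be said. Non-overlapping members numbered 2 with normexp (Ddx4 and Piwil2) and 5 with the mean of all tested probes, and 4 to 5 without 1 array. Leaving out an array can hardly make separated groups overlap, so the counts without 1 array do not test stability. For non-overlap, too, the share of all genes was not counted under the alternatives. The further list's calls ran from 0 to 2 without 1 array, and its median was 0.012 with 75th percentile scaling and -0.045 to 0.0010 without 1 array. Prss55 stayed between -0.96 and -0.84. It was short of the adjusted threshold by the methods' t-test (-0.90, adjusted p = 0.0713), with the replicate block (-0.90, adjusted p = 0.101) and without Prss55-/- replicate 2 (-0.88), Prss55-/- replicate 3 (-0.87) or wt replicate 1 (-0.91). Same-numbered arrays deviated together at r = -0.054, -0.023 and -0.11, which cannot show whether the mice were paired. A figure legend of the paper describes the mice as 3 pairs, and the labels do not say whether equal numbers mark them. The replicate block lowered the called probes from 346 to 13 and the calls of the further list to 0. The cause of these shifts was not tested.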
